A study of Saccharomyces cerevisiae with 9 samples.

Results

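The cytosolic ribosomal protein genes of Saccharomyces cerevisiae were examined in nucleosome maps of ioc3Δ and WT cells. A gene was a member when its symbol was RPL or RPS followed by a number, or was 1 of RPP0, RPP1A, RPP1B, RPP2A and RPP2B. The rule took 137 of 6002 nuclear protein-coding genes, namely 76 RPL genes of the large subunit, 56 RPS genes of the small subunit and the 5 RPP genes of the stalk. Their nucleosomes were the 599 paired calls, of 51917 in all, whose WT dyad (the midpoint of the nucleosomal DNA) lay from 60 bp upstream of the start codon to the stop codon, and every member had a call.

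The series mapped nucleosomes by MNase-seq, in which micrococcal nuclease removes the DNA between nucleosomes and the protected fragments are sequenced. It holds 3 strains in the BY4742 background, grown in YPD at log phase, with 3 biological replicates each: ioc3Δ, which lacks IOC3, ioc3ΔcHLB, which lacks part of the protein, and WT ISW1a. Ioc3 is the subunit that, with the ATPase Isw1, forms the remodeler ISW1a, which spaces nucleosomes in vitro. The labels give a FLAG tag for every sample, ioc3Δ included, while the protocol names the tag on Ioc3 and on its truncated form. The authors merged the replicates of a strain before nucleosomes were called, so each strain gave a single value per nucleosome, the spread between replicates could not be measured, and no statement here rests on it. The 7 calls inside IOC3 (YFR013W, chromosome VI, 169922 to 172285) held 0.574% of the WT occupancy in ioc3Δ, which fits the label, and the 8 calls there in the table labelled ioc3ΔcHLB held 0.680%, which goes against the truncation it names, so the second table was used only as an alternative and is called by its label.

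Ribosomal protein genes are the most strongly and most coordinately transcribed class of RNA polymerase II genes in growing yeast. Rap1 binds their promoters and recruits Fhl1, Ifh1 and, at many of them, Hmo1, and transcription is turned down when nutrients are short. Most of them descend from the whole-genome duplication and exist as copies A and B that encode nearly the same protein. Introns are rare in yeast but common in this class, where 89 of 137 members had an intron (2 of these had 2 introns), against 182 of 5865 other genes.

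The occupancy of a call is the number of fragments centred in it after normalization to the mean coverage of the genome. Each occupancy was, within 1% of a step, a whole multiple of 0.199 in ioc3Δ and 0.138 in WT, taken as the worth of 1 fragment, so member calls rested on a median of 219 fragments in ioc3Δ and 303 in WT, and the lowest were 19 in ioc3Δ and 49 in WT. A ratio of occupancies is given as ioc3Δ over WT divided by 0.892, the median ratio of all 51917 calls. Dyad positions are in bp on sacCer3, a shift is the position of the dyad in ioc3Δ less that in WT along the gene, and a positive shift is downstream. The +1 nucleosome was the first call with a WT dyad from 60 bp upstream to 120 bp downstream of the start codon, and each following position was the next call 110 to 230 bp farther on and before the stop codon.

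A +1 nucleosome was assigned in 134 members, a +2 nucleosome in 93, a +3 in 66 and a +4 in 44. The 3 members with no +1 call, RPL9A, RPS2 and RPL24A, had their first call 160, 245 and 196 bp downstream of the start codon. A +2 nucleosome followed +1 in 69.4% of the ribosomal protein genes with a +1, against 93.9% of other genes. Of the 41 members without it, 4 had no further call before the stop codon and 37 had the next paired call more than 230 bp away, at 234 to 448 bp (median 291 bp). The tables list only nucleosomes that overlap between strains, so a missing call can be a gap in the array or a nucleosome without a partner. The distance from +1 to the next paired call upstream, which spans the promoter, had a median of 608.5 bp in ribosomal protein genes (interquartile range 413.8 to 773.2, n = 134) and 447 bp in other genes (274 to 711, n = 5711).

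The strongest nucleosome calls of the set lay in the stalk genes, whose products form the flexible lateral arm of the large subunit that recruits translation factors, and in RPL4A and RPL4B. A WT occupancy above 500 was found at 10 of 599 member calls (1.67%), in 8 genes, against 1849 of all 51917 calls (3.56%). All 5 stalk genes had such a call, RPP2B had 2 and RPL4B had 2, and the remaining gene was RPS14B. The nucleosomal DNA of these 10 calls had a GC content of 49.7 to 54.4%, against a median of 39.5% over all member calls and over all calls, and the scaled ratio was 1.85 to 2.25 at all 10 (median 2.07), against a median of 1.70 over all calls above 500. The DNA of the strongest call in each stalk gene is given on the coding strand from its WT dyad ± 73 bp, up to the stop codon, since these calls set the top of the range with RPL4A and RPL4B. Capitals mark GCTGC on either strand, letters that recur where the alanine codon GCT is repeated, and matches may overlap each other. RPP0 (chrXII:806686-806825), RPP1A (chrIV:309802-309939, minus strand), RPP1B (chrIV:230316-230462), RPP2A (chrXV:254464-254610) and RPP2B (chrIV:1239669-1239815) all lay in coding sequence, apart from the first 5 bases of the RPP1B window, which belong to its intron.
RPP0: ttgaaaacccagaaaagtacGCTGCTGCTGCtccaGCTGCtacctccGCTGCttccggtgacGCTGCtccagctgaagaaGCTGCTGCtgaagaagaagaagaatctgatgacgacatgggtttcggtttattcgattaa
RPP1A: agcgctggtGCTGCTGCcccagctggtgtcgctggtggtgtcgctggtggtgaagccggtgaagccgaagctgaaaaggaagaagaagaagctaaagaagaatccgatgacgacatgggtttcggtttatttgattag
RPP1B: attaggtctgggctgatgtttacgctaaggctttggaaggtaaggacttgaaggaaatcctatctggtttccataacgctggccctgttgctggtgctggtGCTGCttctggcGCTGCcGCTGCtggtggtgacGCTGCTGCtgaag
RPP2A: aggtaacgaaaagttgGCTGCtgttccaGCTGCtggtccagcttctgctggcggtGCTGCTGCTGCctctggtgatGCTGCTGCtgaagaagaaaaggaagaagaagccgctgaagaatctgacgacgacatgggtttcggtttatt
RPP2B: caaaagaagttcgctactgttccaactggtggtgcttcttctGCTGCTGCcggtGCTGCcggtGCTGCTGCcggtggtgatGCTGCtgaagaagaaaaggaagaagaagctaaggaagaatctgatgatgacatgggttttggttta
The letters GCTGC occurred 8 times in RPP0, 2 times in RPP1A, 5 times in RPP1B, 7 times in RPP2A and 6 times in RPP2B. They were in 20.7% of the 599 member windows and in 18.3% of all windows of 147 bp, and 3 or more matches were in 11 member windows (1.84%) and in 413 of all windows (0.796%). Coordinates assume that the deposited positions count from 1, since the tables do not say.

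At these calls RPP1A had an occupancy of 1592 in ioc3Δ, against 794 in WT, a scaled ratio of 2.25. RPP0 had 1627 in ioc3Δ, against 845 in WT, a ratio of 2.16. RPP2A had 1668 in ioc3Δ, against 867 in WT, and a ratio of 2.16. RPP2B had 2168 in ioc3Δ, against 1162 in WT, and a ratio of 2.09, and its neighbouring call had 1681 in ioc3Δ, against 1018 in WT. RPP1B had 2387 in ioc3Δ, against 1305 in WT, and a ratio of 2.05. The 5 ratios thus lay from 2.05 to 2.25, while the WT occupancies ranged from 794 to 1305. Divided instead by the median ratio of calls with the same GC content, the ratio was 1.14 in RPP1B, 1.20 in RPP2A and 1.36 in RPP2B. It was 1.03 at the neighbouring call of RPP2B. That base was chosen after seeing the data, and RPP0 and RPP1A are not given on it. Identity between the stalk genes was not computed, so fragments shared among them were not looked at. The +1 nucleosomes of the same genes had far lower WT occupancies, of 18.1 in RPP0 to 69.9 in RPP1A.

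RPL4A and RPL4B, the copies that encode a protein lining the exit tunnel, carried the highest occupancies, and their sequences show how far the copies can be told apart. The RPL4A window was chrII:300274-300420 and the RPL4B window chrIV:471955-472101, both on the plus strand.
RPL4A: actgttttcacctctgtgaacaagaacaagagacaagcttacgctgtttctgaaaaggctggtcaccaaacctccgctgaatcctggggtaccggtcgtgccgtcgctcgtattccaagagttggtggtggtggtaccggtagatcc
RPL4B: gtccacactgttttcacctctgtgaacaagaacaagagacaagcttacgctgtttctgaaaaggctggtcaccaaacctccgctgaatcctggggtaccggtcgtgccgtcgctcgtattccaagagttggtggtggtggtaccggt
Each window matched the other copy over all 147 bases (100% identity). RPL4A had an occupancy of 2565 in ioc3Δ, against 1362 in WT, and RPL4B had 3277 in ioc3Δ, against 1897 in WT. Their scaled ratios were 2.11 and 1.94, and with calls of the same GC content as the base 1.17 and 1.08. Fragments from identical DNA cannot be placed on a copy, so the values of RPL4A and RPL4B are uncertain as values of either gene.

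For comparison, the DNA of the 2 calls with the lowest scaled ratios among windows wholly inside an intron shows the other end of the range. They lay in RPS30B (chrXV:678404-678550, minus strand, GC content 31.3%) and RPL21B (chrXVI:406876-407022, plus strand, GC content 32%).
RPS30B: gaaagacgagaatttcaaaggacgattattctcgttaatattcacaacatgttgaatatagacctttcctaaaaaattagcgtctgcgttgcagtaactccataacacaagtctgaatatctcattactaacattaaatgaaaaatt
RPL21B: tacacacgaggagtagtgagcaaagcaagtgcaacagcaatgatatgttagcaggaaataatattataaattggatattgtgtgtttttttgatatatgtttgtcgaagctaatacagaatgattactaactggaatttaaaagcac
RPS30B had an occupancy of 22.1 in ioc3Δ, against 48.7 in WT, a ratio of 0.509, and RPL21B had 7.37 in ioc3Δ, against 16.0 in WT, a ratio of 0.516. Neither window held GCTGC.

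**Figure D1:**
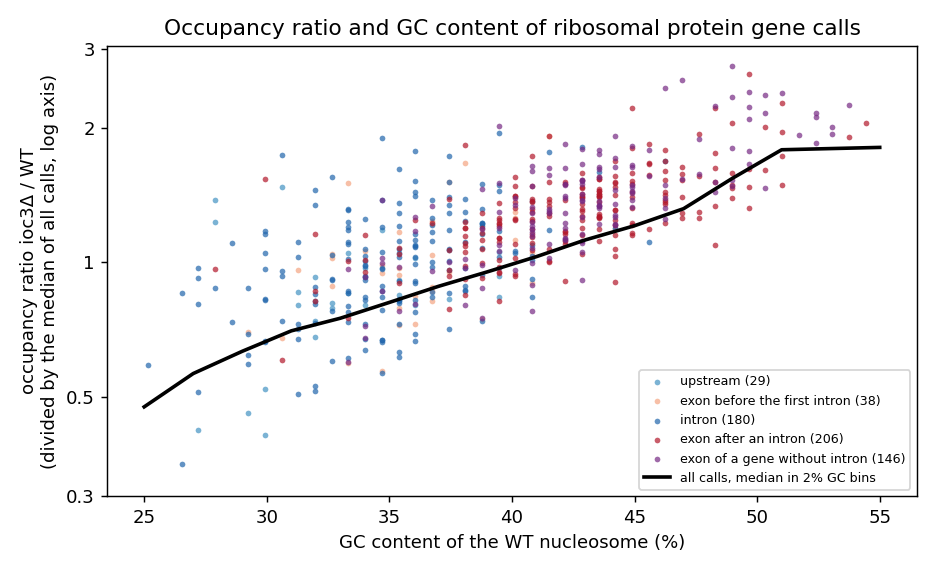
Scaled occupancy ratio, ioc3Δ over WT, on a log axis, against the GC content (percent) of the 147 bp around the WT dyad, for the 599 ribosomal protein gene calls (1 point each, coloured by location) and for all calls (black line, median in 2% bins). Intron calls, upstream calls and calls in an exon before the first intron lie at low GC content and low ratios. Other exon calls lie at higher values of both, and most points lie above the line.

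In WT, the first nucleosomes of ribosomal protein genes were sparse and poorly positioned relative to other genes. The WT occupancy at +1 had a median of 31.7 in ribosomal protein genes (interquartile range 19.7 to 48.3, n = 134) and 76.2 in other genes (47.4 to 122, n = 5718). At +2 the medians were 35.3 (n = 93) and 75.2 (n = 5370), and at +3 36.9 (n = 66) and 66.1 (n = 4783). The gap was smaller at +4, with 51.8 in ribosomal protein genes (n = 44) and 59.0 in other genes (n = 4033). WT occupancy rose with the GC content of the nucleosomal DNA. Over calls at any position its median was 25.9 in members and 39.5 in all calls at 32 to 36% GC. At 36 to 40% GC it was 35.5 and 49.4. The part of GC content in the gap was not tested. The dyad SD, the spread of single fragments around the dyad, was 24.5 bp at +1 in ribosomal protein genes and 18.1 bp in other genes, and 28.6 bp and 19.2 bp at +2. At +3 it was 29.3 bp against 20.9 bp. In a merged map of many cells, a nucleosome present in fewer cells and one that is recovered less well cannot be told apart.

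**Figure D2:**
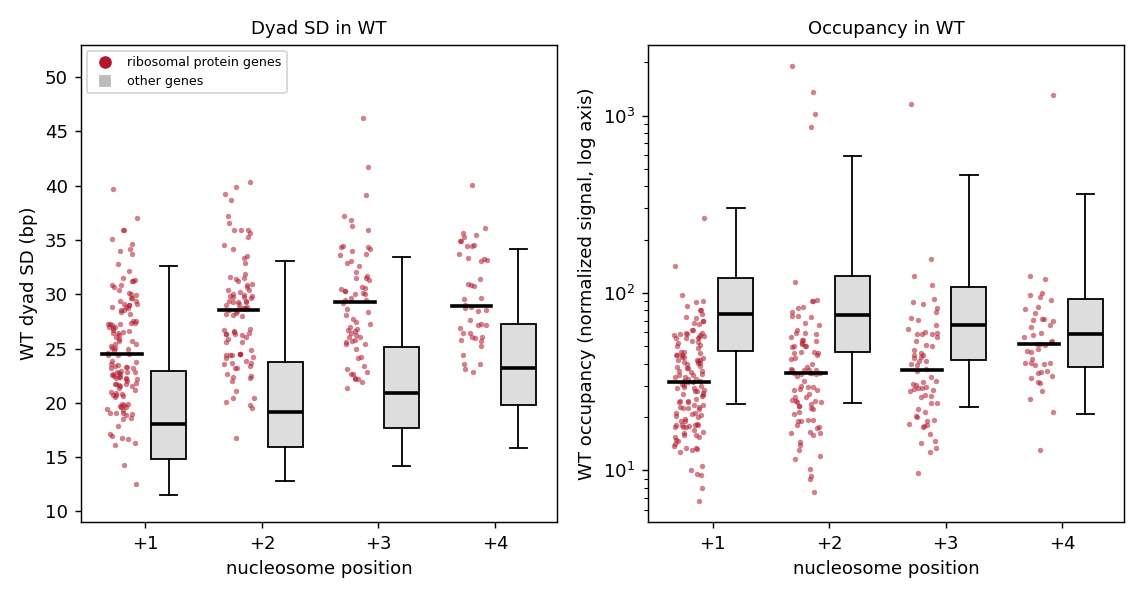
WT dyad SD in bp (left) and WT occupancy in normalized units on a log axis (right) at +1 to +4, for ribosomal protein genes (red, 1 point per gene, line at the median) and other genes (grey boxes, quartiles with whiskers from 5 to 95%). At +1 the medians are 24.5 and 18.1 bp on the left and 31.7 and 76.2 on the right.

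In ioc3Δ the +2 nucleosome lay farther downstream than in WT in most genes, but ribosomal protein genes as a class did not show this. At +2 the median shift was 0 bp in ribosomal protein genes (interquartile range -4 to 3, n = 93), against 4 bp in other genes (1 to 8, n = 5370). The +2 dyad was farther downstream in ioc3Δ in 45 of the 93 members (48.4%), farther upstream in 41 (44.1%) and at the same base in 7, whereas 76.0% of other genes had it downstream and 17.7% upstream.

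At +3 the median was 0 bp in ribosomal protein genes (-3 to 3, n = 66) and 4 bp in other genes (0 to 10, n = 4783), and at +4 it was 0 bp (-4 to 1.25, n = 44) and 3 bp (-1 to 9, n = 4033). Of the ribosomal protein dyads, 45.5% at +3 and 47.7% at +4 lay upstream, close to the share at +2. In other genes 22.3% and 29.5% did, and there the share rose more from +2. The +1 nucleosome behaved more alike in both sets, with a median shift of 1.5 bp in ribosomal protein genes (-2 to 4, n = 134) and 2 bp in other genes (0 to 4, n = 5718).

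The tables give a second position, the mean of the dyads of a call, and with it the +1 shift differed. The +1 mean dyad shifted by a median of 6 bp in ribosomal protein genes, downstream in 80.6% of them, against 3 bp in other genes, while at +2 the medians were -1 bp and 5 bp and at +3 -1.5 bp and 5 bp. By this column the +1 nucleosome of ribosomal protein genes moved toward +2, and the +1 to +2 distance changed by a median of -7 bp (-13 to -1, n = 93), against 2 bp (-2 to 6) in other genes.

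**Figure D3:**
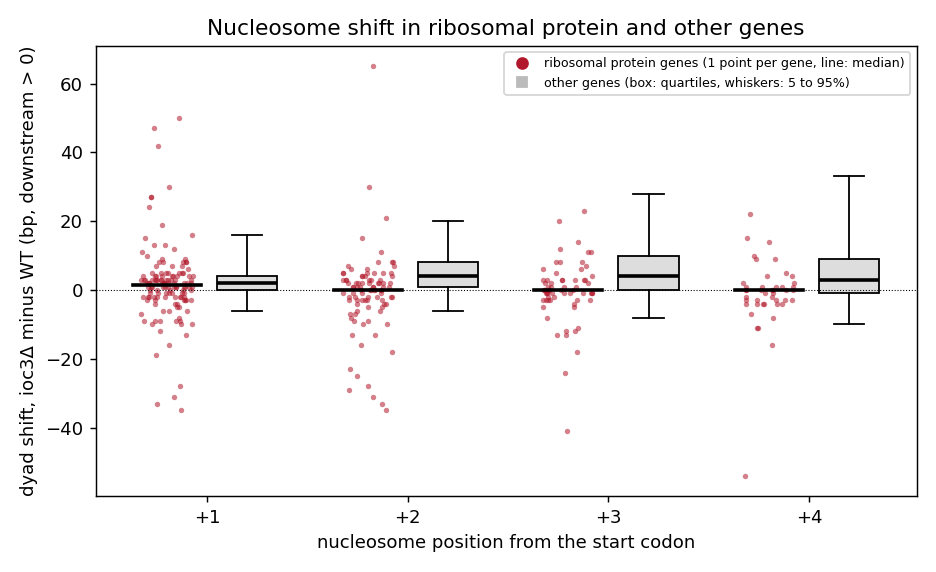
Dyad shift in bp, ioc3Δ minus WT with downstream positive, at +1 to +4, for ribosomal protein genes (red, 1 point per gene, line at the median) and other genes (grey boxes, quartiles with whiskers from 5 to 95%). The ribosomal protein medians are 1.5, 0, 0 and 0 bp and those of other genes 2, 4, 4 and 3 bp.

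The methods name an unequal-variance test per nucleosome that considers the shift, the occupancy and the dyad SD, without giving the formula. It was run here with the occupancy as the count of observations, a reading of that text, on all paired calls, and a call passed at an unadjusted p under 0.01. It compares merged libraries, not cultures. A shifted nucleosome at +1 to +4 was found in 25 of 134 ribosomal protein genes (18.7%), against 46.9% of all 5852 genes tested. A downstream shift was found in 15 members (11.2%; 40.0% of all genes) and an upstream shift in 10 (7.46%; 8.22% of all genes). At +2, 4 of 93 members passed downstream (4.30%; 22.5% of all genes) and 7 passed upstream (7.53%; 3.20% of all genes). At +1, 8 of 134 passed downstream (10.3% of all genes) and 3 upstream (2.07% of all genes), and at +3, 3 of 66 passed downstream (22.9% of all genes) and 3 upstream (4.10% of all genes). The test has less power where occupancy is low and the SD high, as in these genes, and with fragments in place of occupancy as the number of observations it called 65 of the 134 members and 4696 of 5718 other genes, while with 3 observations per strain it called none of either.

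Position spread and occupancy of the +2 call itself moved with this difference, so the shift was read within ranges of both. With a WT SD of 20 to 25 bp the median +2 shift was 0 bp in ribosomal protein genes (n = 25) and 4 bp in other genes (n = 1298). With an SD of 25 to 30 bp it was 1 bp (n = 37) and 3.5 bp (n = 622), and at 30 bp and above -1 bp (n = 28) and 1 bp (n = 472). Under 20 bp there were only 3 members, with a median of 5 bp, against 4 bp in 2978 other genes. With a WT occupancy of 40 to 80 it was 0 bp in ribosomal protein genes (n = 28) and 4 bp in other genes (n = 1907), and with 20 to 40 it was 1 bp (n = 35) and 3 bp (n = 813). The shift of the ribosomal protein genes was thus lower in each range but that of an SD under 20 bp, and the part of SD and occupancy in it was not tested further.

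The largest +2 shifts in the class ran in both directions. RPS28B, a small-subunit protein gene on chromosome XII, had its +1 dyad at 673112 in ioc3Δ, against 673147 in WT, and its +2 dyad at 673260 in ioc3Δ, against 673295 in WT, a shift of -35 bp at both, with the dyads 148 bp apart in both strains. By the mean dyad column RPS28B shifted by -5 bp at +1 and -21 bp at +2. RPL18B moved by -33 bp at +2 and -41 bp at +3, with its +2 dyad at 64301 in ioc3Δ, against 64268 in WT, on the minus strand of chromosome XIV. RPL9B moved by -31 bp at +1 and +2, also at a distance of 148 bp in both strains, but by the mean dyad column by 0 bp at +1 and -17 bp at +2, and the DNA of its +2 call was 96.6% identical to RPL9A. RPS18A (-29 bp) also passed the test, and RPL35A, at -28 bp with a WT occupancy of 19.1 at +2, did not.

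In the other direction RPL32 had its +2 dyad at 46293 in ioc3Δ, against 46228 in WT, on chromosome II, a shift of 65 bp, while its +1 dyad was at 46051 in both strains, and by the mean dyad column the +2 shift was 31 bp. Among the smaller downstream shifts, those of RPS24A (21 bp), RPS10B (15 bp) and RPS27B (11 bp) did not pass, with WT occupancies at +2 of 10.2, 24.3 and 13.1. Further +2 calls that passed, named after their values were seen, were RPL4A and RPL4B (2 bp each, in DNA shared by the copies) downstream, and RPS6A (-23 bp), RPS26A (-18 bp) and RPP2B (-3 bp) upstream. The RPL4 and RPP2B shifts passed at 2 and 3 bp with WT occupancies of 1018 to 1897 standing for the count of observations.

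At +1 the extremes were RPL12B, RPP2A and RPL31A downstream and RPS28B, RPL36B and RPL9B upstream, and all 6 passed. By the mean dyad column the shifts of RPL12B, RPP2A, RPL31A and RPL36B were 24, 31, 15 and -11 bp. RPL12B, part of the stalk base, had its +1 dyad at 1301694 in ioc3Δ, against 1301644 in WT, on chromosome IV, and an occupancy of 577 in ioc3Δ, against 263 in WT. RPP2A moved by 47 bp, with its +1 dyad at 254355 in ioc3Δ, against 254308 in WT, and the +1 to +2 distance was 180 bp in ioc3Δ, against 229 bp in WT. RPL31A moved by 42 bp at a WT occupancy of 16.8. RPL36B moved by -33 bp at +1 and -3 bp at +2, so that its +1 to +2 distance was 178 bp in ioc3Δ, against 148 bp in WT. At +3 the extremes were RPS12 (23 bp), RPL15A (20 bp) and RPS4B (14 bp) downstream, with 95.9% identity to the other copy in RPL15A, and RPL18B (-41 bp), RPS20 (-24 bp) and RPS6A (-18 bp) upstream, of which RPS6A did not pass. No member passed at +1, +2 and +3 in the same direction.

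Where a +2 call followed within 230 bp, the first nucleosomes of ribosomal protein genes were close together. The distances leave out 37 of 134 members and 204 of 5718 other genes, whose next paired call was more than 230 bp away. The WT distance from +1 to +2 had a median of 156 bp in ribosomal protein genes (interquartile range 148 to 166, n = 93) and 167 bp in other genes (161 to 173, n = 5370), and that from +2 to +3 was 158.5 bp (n = 66) against 167 bp (n = 4783). In ioc3Δ the +1 to +2 distance had a median of 150 bp in ribosomal protein genes and 169 bp in other genes. The change per gene was 0 bp in ribosomal protein genes (-5 to 2) and 2 bp in other genes (-1 to 6), and it was a lengthening in 28.0% and 58.9% of genes.

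Many of these distances were at the shortest one the tables hold. No neighbouring WT dyads in the tables were closer than 148 bp, and the +1 to +2 distance of ribosomal protein genes was exactly 148 bp in 47.3% in ioc3Δ and 30.1% in WT (44 and 28 of 93), against 9.24% and 6.74% of other genes. In 25 of the 28 members at this minimum in WT, +1 and +2 moved by the same number of bases, so their shifts are not independent. In the 65 members above this minimum the +2 shift was 1 bp (-3 to 3), against 4 bp (1 to 8) in 5008 other genes, and the distance change was -3 bp, against 2 bp. Closer nucleosomes than 148 bp, if present, cannot be seen in these tables.

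**Figure D4:**
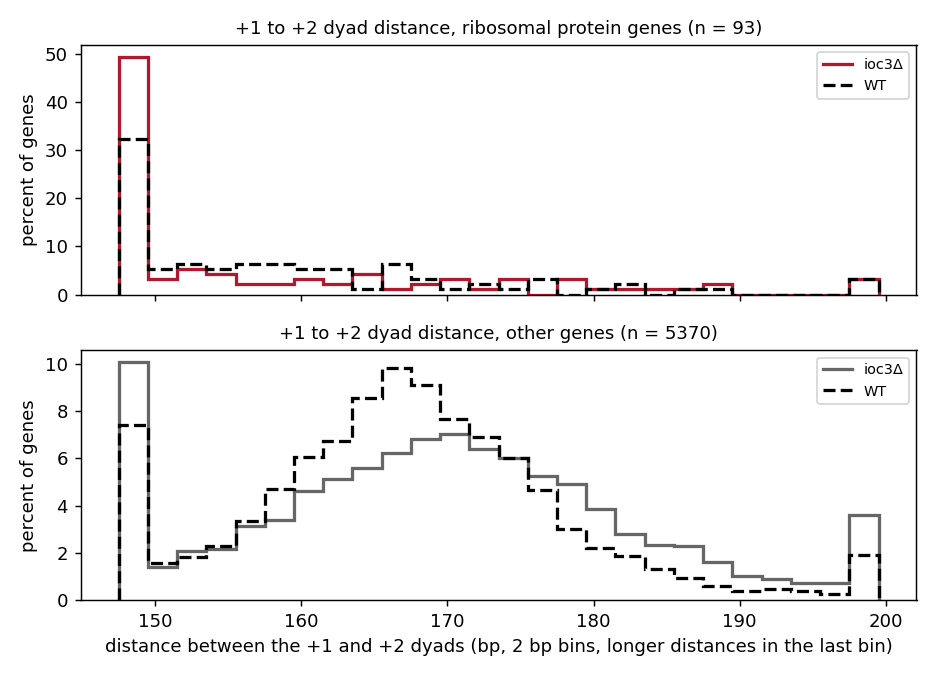
Distribution of the +1 to +2 dyad distance in bp for 93 ribosomal protein genes (upper panel) and 5370 other genes (lower panel), as percent of genes in 2 bp bins, in ioc3Δ (solid line) and WT (dashed line), with longer distances in the last bin. In ribosomal protein genes 47.3% of distances in ioc3Δ and 30.1% in WT are at the 148 bp minimum, in the first bin.

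The dyad SD was higher in ioc3Δ in most ribosomal protein genes, as in other genes. At +1 the change had a median of 2.33 bp in ribosomal protein genes (higher in 103 of 134) and 1.89 bp in other genes (higher in 82.5%). At +2 it was 2.69 bp (higher in 75 of 93) and 2.81 bp (higher in 86.7%), and farther in it was smaller in ribosomal protein genes, 1.76 bp at +3 and 0.99 bp at +4, against 3.83 bp and 4.0 bp. Among all 599 member calls the change had a median of 1.66 bp, against 2.41 bp over the calls of other genes. RPL22A, an intron-containing gene, had the largest change at +2, with an SD of 31.7 bp in ioc3Δ, against 19.8 bp in WT. RPS7A had 36.2 bp in ioc3Δ, against 24.9 bp in WT. The most negative changes were in RPS9A (29.4 bp in ioc3Δ, against 35.9 bp in WT), RPL35A (34.2 bp in ioc3Δ, against 39.9 bp in WT) and RPL29 (28.7 bp in ioc3Δ, against 33.5 bp in WT).

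Occupancy was higher in ioc3Δ relative to all calls over the bodies of ribosomal protein genes but not at their first nucleosome. The scaled ratio had a median of 0.949 at +1 (n = 134), 1.18 at +2 (n = 93), 1.16 at +3 (n = 66) and 1.31 at +4 (n = 44) in ribosomal protein genes, and 0.977, 1.09, 1.03 and 0.993 at the same positions in other genes. Over all 599 member calls it was 1.19 (interquartile range 0.960 to 1.44), against 1.01 (0.822 to 1.25) over the calls of other genes. A ratio of at least 1.5 was found at 117 member calls (19.5%), against 11.5% of all calls, and a ratio of at most 1 over 1.5 at 24 (4.01%), against 10.8% of all calls. These calls have no test, since each strain gave a single value.

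The ratio followed base composition in the whole map. Across all 51917 calls the Spearman correlation of GC content with the ratio was 0.639, and across the 599 member calls it was 0.720, as a description over calls that share the same merged libraries. Within ranges of GC content the member calls still had the higher ratios: 0.935 against 0.795 for all calls at 32 to 36% GC (106 member calls), 1.09 against 0.920 at 36 to 40% (139), 1.32 against 1.07 at 40 to 44% (161) and 1.44 against 1.25 at 44 to 48% (84). Divided by the median ratio of calls with the same GC content, an alternative chosen after seeing the data, the ratio was 1.11 at +1 and 1.20 at +2 in ribosomal protein genes, against 1.01 and 1.03 in other genes, so that at +1 the order of the sets turned round. Digestion depth, which can change the recovery of AT-rich DNA, was not recorded in the tables, and its part in the ratio was not tested.

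The highest ratio at +1 was in RPL12B (2.46), RPL18B was among the higher ones at 1.67, and the lowest were in RPL42A (0.354), RPL30 (0.410) and RPS27B (0.421). RPL42A had an occupancy of 5.58 in ioc3Δ, against 17.7 in WT, in DNA of 26.5% GC, and RPL12B lay in DNA of 46.3% GC. At +2 the highest were RPS15 (2.37), RPP2A (2.16) and RPL4A (2.11) and the lowest RPL34B (0.565), RPL40B (0.612) and RPL16B (0.622). RPS15, whose product is needed for export of the small subunit precursor, had 107 in ioc3Δ, against 50.5 in WT, in DNA of 50.3% GC, and RPL34B had 8.77 in ioc3Δ, against 17.4 in WT, in DNA of 34.7% GC.

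Occupancy and ratio both differed by location within the gene, though not in the same order. The 206 calls in exons after an intron had a scaled ratio of 1.30 and a WT occupancy of 57.7, and the 146 calls in exons of members without an intron had 1.38 and 52.5. The 180 calls with the dyad in an intron had a ratio of 0.991 and a WT occupancy of 24.2, the 38 in an exon before the first intron had 0.979 and 28.9, and the 29 upstream of the start codon had 0.853 and 32.6. In other genes the 126 intron calls had a ratio of 0.860 and a WT occupancy of 59.9, and exon calls of genes without an intron had 1.02 and 58.7. Median GC content was 35.4% in introns, 42.9% in exons after an intron and 33.3% upstream in ribosomal protein genes, and with calls of the same GC content as the base the ratios were 1.21, 1.18 and 1.08. Intron calls were thus no lower than exon calls once calls of equal GC content were the base.

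Intron-containing members did not stand apart in the shift. The +2 shift had a median of 0 bp in ribosomal protein genes with an intron (-3.5 to 4, n = 59) and 1 bp in those without (-5.5 to 2, n = 34), a difference within both ranges. Other genes with an intron had a median of 2 bp (-0.75 to 6, n = 166), against 4 bp (1 to 8, n = 5204) without. Members with an intron had a WT occupancy of 26.8 at +1, against 41.8 in those without, and a scaled ratio of 1.04 at +2, against 1.39, with a median GC content at +2 of 35.4% against 42.9%. By subunit, the +2 shift was 0 bp for large-subunit genes (-4.5 to 2, n = 51), 2 bp for small-subunit genes (-3.75 to 4.75, n = 38) and -2.5 bp for the stalk genes (n = 4), and the WT +1 to +2 distances were 155, 156.5 and 164 bp.

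The members include 57 pairs of RPL or RPS genes named as copies A and B, 114 genes. The other 23 were left unpaired, among them the stalk genes, whose RPP symbols the pairing did not cover. For the 25 pairs with +2 in both copies, the +2 ratio had a Pearson correlation of 0.731 between copies and the shift 0.140. At +1, over 55 pairs, the values were 0.073 and -0.090. The Spearman correlations were 0.659 and 0.297 at +2, and 0.077 and -0.160 at +1. All are descriptions over pairs from the same 2 merged maps. Shared reads can make near-identical copies alike in ratio too. The Pearson correlation over the 18 pairs with under 70% identity at +2 was 0.466 for the ratio and 0.240 for the shift. The Spearman values there were 0.420 and 0.318. This identity limit was chosen after seeing the data. The difference between these correlations was not tested. The +2 shift had the same sign in 15 pairs and opposite signs in 7, with a median difference of 6 bp (interquartile range 3 to 12), and the +1 shift had the same sign in 22 pairs and opposite signs in 29. Large differences at +2 were found in RPS28 (2 bp in copy A and -35 bp in copy B), RPS18 (-29 and 4 bp) and RPL35 (-28 and -2 bp).

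RPL11, RPL4 and RPL42 had the same +2 shift in both copies (2, 2 and 1 bp) and RPL22 differed by 1 bp. For RPL11 and RPL4 the +2 DNA was at least 98.0% identical between copies, so shared reads can make the copies alike, whereas for RPL42 and RPL22 the best ungapped identity was 38.8 to 44.2%, below 95% in every copy. At +1 no call reached 95% identity to the other copy (highest 92.5%, median 45.9%), and at +2 13 of 77 calls did and 3 were identical. Without these calls the median +2 shift of the class was still 0 bp (n = 80).

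**Figure D5:**
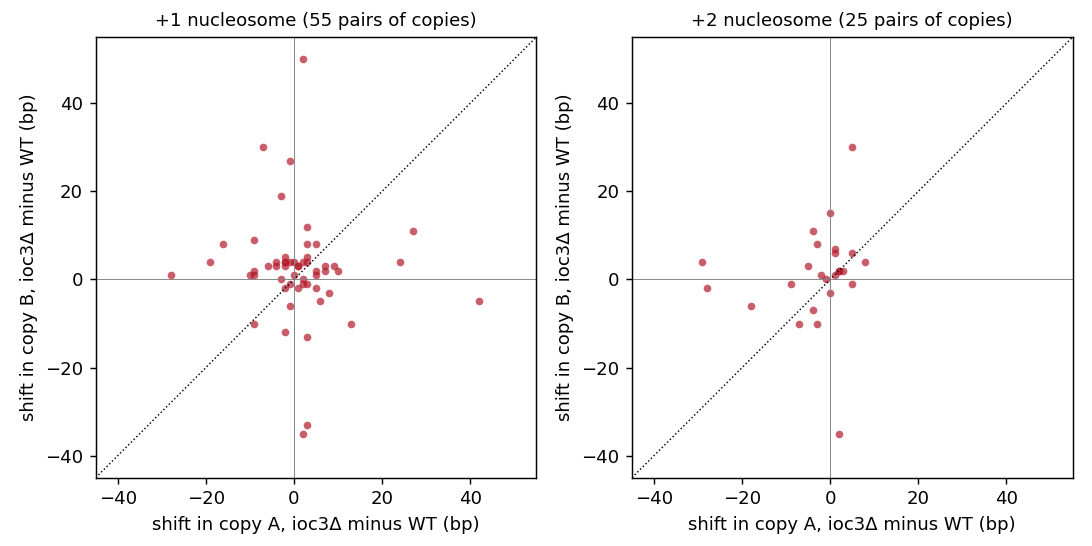
Dyad shift in bp, ioc3Δ minus WT, of copy B against copy A of the same ribosomal protein gene, for 55 pairs at +1 (left) and 25 pairs at +2 (right), with the line of equality dotted. Points scatter around both axes, with Pearson correlations of -0.090 and 0.140.

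Genes known for regulation by their own product or for drug resistance were looked at by name. RPL30, whose protein blocks splicing of its own transcript, had its +1 dyad at 439040 in ioc3Δ, against 439049 in WT, and moved by -9 bp at both +1 and +2. Its +1 and +2 dyads were 148 bp apart in both strains, so these shifts are not independent. RPL3 (peptidyl transferase centre) had -2 bp at +1 and RPL28, the site of cycloheximide resistance, had -3 bp. RPS14A had -2 bp and RPS14B, which is repressed by the Rps14 protein, had 3 bp at +1. By the mean dyad column the +1 shifts of RPL30, RPL3, RPL28, RPS14A and RPS14B were 5, 5, 6, 2 and 8 bp. None of these 5 genes passed the test, and only RPL30 had a +2 call.

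The promoter letters ACCCANACA, part of the Rap1 consensus, were searched on both strands in the 500 bp before the start codon. They were found in 45 of 137 ribosomal protein genes (32.8%) and in 2.40% of 5865 other genes. The +2 shift was 1 bp in members with a match (n = 31) and -1 bp in those without (n = 62). The distance from +1 to the next call upstream was 743 bp and 569 bp. In other genes the +2 shift was 4 bp both with a match (n = 125) and without (n = 5245). Their distance upstream was 496 bp and 446 bp. A match in these letters is not a measure of binding.

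The regulators of the class were described from a list of 12 genes, RAP1, FHL1, IFH1, SFP1, CRF1, HMO1, ABF1, STB3, DOT6, TOD6, SCH9 and UTP22. Their median +2 shift was 8 bp over the 11 with a +2 call, 8 downstream and 2 upstream, and 7 of 12 had a nucleosome called downstream at +1 to +4 and 0 upstream, against 40.0% and 8.22% of all genes. DOT6, a repressor of ribosome biogenesis genes, moved by 47 bp at +2 and by 53 bp at +1. Its +2 dyad was at 334954 in ioc3Δ, against 335001 in WT, on the minus strand. SCH9, a kinase of nutrient signalling, moved by 41 bp at both +1 and +2. Its +1 and +2 dyads lay at the 148 bp minimum distance in both strains, so these shifts are not independent. CRF1, a corepressor at these promoters, moved by 19 bp, and all 3 passed at +2. RAP1 itself had a +2 shift of 0 bp. Of 6 dedicated chaperone genes of ribosomal proteins, ACL4, RRB1, SQT1, SYO1, YAR1 and TSR2, 2 passed downstream and 0 upstream, with a median +2 shift of 0 bp. SQT1, which escorts Rpl10, had 8 bp at +2 and passed.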

How the data were processed

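Nucleosomal DNA from 9 MNase-seq samples (3 per strain) was sequenced in pairs by the authors and mapped to sacCer3 with Bowtie2 2.0. Reads of the rRNA locus were removed, fragment centres were taken as dyads, samples were merged, and nucleosomes were called with a greedy algorithm and paired between strains at an overlap of at least 73 bp. The deposited tables give dyad, mean dyad and dyad SD in bp and occupancy as a coverage signal normalized by the authors to the genome mean. Of 53840 rows for ioc3Δ, 1911 repeated another row and 12 lay in the rRNA locus, which left 51917. A summed signal was 1.18 times higher in ioc3Δ than in WT, while the median ratio was 0.892. Gene models came from the R64 assembly, the sequence of sacCer3, and hold coding sequence only. Gaps under 30 bp in a coding sequence were not counted as introns.

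Medians and interquartile ranges were computed in Python 3.11.15 with pandas 2.3.3 and scipy 1.17.1. The shift test needed an occupancy of at least 2 in both strains. It was run on simulated dyads drawn with the spread that the test itself assumes, which cannot check occupancy as the count of observations. Intervals in the comparison of settings are order-statistic intervals of the median. Members and gene lists were chosen with earlier results of these data known. Named genes were the extremes of each measure (5 each way for +2 shift, 3 for the other measures), the 4 most and least alike pairs of copies, members passing at +1 to +3 in the same direction, the stalk genes, 5 genes of textbook interest, and listed regulators and chaperones. The genes with printed sequences and RPS14B, RPS26A and RPL4B were named after their values were seen. Alternatives covered overlap, occupancy, dyad column, tables, gene length, +1 choice, neighbours, dyad SD, copies, mean, scaling and number of observations. Some members that the rule names are not reported here.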

Additional observations from a re-analysis of the deposited data

How the results depend on the processing

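No paired analysis was possible because the replicates were merged before nucleosomes were called, so the columns carry no replicate number; for the same reason no replicate could be left out. Of 124 comparisons of a result under another setting, 99 stayed within the interval of the median (or within 1.5 times the count) and 25 did not. The setting with +1 nearest to the start codon could not change any value, since neighbouring WT calls lie at least 148 bp apart. Leaving out near-identical copies could not change values at +1, where no call reached 95% identity. Both settings are included in these counts and in those below. The +2 shift of ribosomal protein genes stayed between -1.18 and 1 bp and below that of other genes in all 10 settings tried, as did the +3 shift and the distance change, while the +1 shift was below in 5, equal in 3 and above in 2. The WT dyad SD at +1 was above and the WT occupancy at +1 below that of other genes in all 7 settings each. The SD change was above that of other genes in 8 of 9 settings at +1 and below it in 8 of 9 at +2. The +2 occupancy ratio was above that of other genes in all 13 settings, and the +1 ratio was below in 12 and above with scaling by GC content.

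With the mean dyad column the +1 shift was 6 bp, the +3 shift -1.5 bp and the +1 to +2 distance change -7 bp. With neighbours over 150 bp away in both strains, the +3 shift was 1.5 bp and the distance change 1 bp. In that setting 10 of 134 member genes passed the test, against 2020 of 5718 other genes. The difference between copies was not computed there, as too few pairs were left. With WT dyad SD at or under the median of all calls, the +2 SD change was 3.44 bp, against 3.09 bp in other genes. In that setting the WT SD at +1 was 21.8 bp and the difference between copies 1 bp (6 pairs). There 8 of 134 member genes passed, against 2171 of 5718 other genes. In the upper 75% of WT occupancy the WT occupancy at +1 was 55.6. With the table labelled ioc3ΔcHLB the SD changes were 3.53 bp at +1 and 3.71 bp at +2. With it 13 of 135 member genes passed, against 2247 of 5736 other genes. Among genes longer than 560 bp 16 of 104 member genes passed, against 2465 of 4759 other genes. With 3 observations per strain 0 member genes passed. With fragments as observations 65 of 134 did, against 4696 of 5718 other genes. With means, the distance change was -1.29 bp, the +1 ratio 1.00 and the +1 WT occupancy 38.3. The +1 and +2 ratios were 0.846 and 1.05 without scaling, 0.716 and 0.887 scaled by summed occupancy, and the +1 ratio was 1.11 scaled by GC content, a setting chosen after seeing the data. The cause of these differences was not tested. With Benjamini-Hochberg adjustment over all calls 25 of 134 member genes passed, against 2746 of 5718 other genes. The test with 3 observations per strain called 0 of 5718 other genes too. Depth limits single genes, since a member call could rest on 19 fragments.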
